A study of Mus musculus with 12 samples.

Results

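The genes described here are the ligands and receptors of the axon guidance systems, measured in R1 mouse embryonic stem cells (ESCs). They were chosen by symbol as the Eph receptors and their ephrin ligands (Epha, Ephb, Efna, Efnb), the semaphorins with their plexin and neuropilin receptors (Sema, Plxn, Nrp), and the netrins and slits with their receptors (Ntn, Unc5, Dcc, Slit, Robo). The rule used no measured value and found 69 of the 24881 symbols measured, 22 in the ephrin family, 31 in the semaphorin-plexin family and 16 in the netrin-slit family. RNA-seq was done on ESCs that carry the FUCCI cell cycle reporters and were sorted in G1 phase, so that reporter, sort and parental line are shared by every group. The 4 groups of 2 libraries were wild-type (WT) ESCs in serum, WT ESCs in 2i, and P53 knockout (P53KO) ESCs in each of these cultures. 2i is a serum-free medium with inhibitors of the MEK and GSK3 kinases that holds ESCs in the naive ground state of pluripotency. P53KO ESCs were made with CRISPR/Cas9 cutting an exon common to the Trp53 isoforms, and were grown from single cells. The study used 2 independent P53KO clones for RNA-seq. Which clone a P53KO library came from is not given by its column, so the clones could not be compared.

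Axon guidance cues are secreted or membrane-bound proteins that attract or repel growing axons, and the same proteins act in many migrating or adhering cells outside the nervous system. Ephrins sit in the membrane of a cell and bind Eph receptor tyrosine kinases on its neighbour, so that signals pass in both directions at a contact. Semaphorins act through plexins, with neuropilins as co-receptors for the secreted class. Netrins act through Dcc and the Unc5 receptors among others, and slits through the Robo receptors. P53 is a transcription factor that is stabilised under stress and induces arrest and apoptosis genes. The comparisons address how the loss of P53 changes the G1-phase transcriptome in each culture, and how the cultures differ.

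Levels are given as FPKM (fragments per kilobase of transcript, scaled to the mapped fragments of the library), which can be set side by side between genes because they are divided by length. Low values put the depth at about 5100000 to 12900000 fragments per library, lowest in the second libraries of both 2i groups, and 1 fragment was worth 0.00712 to 0.122 FPKM for the tested members. Trp53 stood at 77.6 and 75.1 FPKM in WT serum, 16.8 and 3.68 in P53KO serum, 26.8 and 33.7 in WT 2i, and 7.25 and 1.88 in P53KO 2i. It was lower in every P53KO library than in WT of the same culture. All 8 markers of ESCs were expressed, with a summed level of 3114 to 4289 FPKM. Of 9 neural markers 5 had a mean above 0.5 FPKM, and their sum was 137 to 176 FPKM in serum and 56.5 to 82.3 in 2i, while Dcx was listed at 0 throughout.

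Part of each family was expressed. Of the 69 members 37 had a mean of at least 0.5 FPKM over the 8 libraries and were tested, 15 of the ephrin, 17 of the semaphorin-plexin and 5 of the netrin-slit family. The other 32 had means of at most 0.431 FPKM (Ntn3), and none reached 1 FPKM in any library. They include Dcc, a receptor of netrin attraction, the Unc5 receptors other than Unc5b, the neuropilin Nrp1 and 8 of the 20 semaphorins. Neo1, a guidance receptor that the symbol rule leaves out, ran from 6.77 to 11.1 FPKM. Unc5c was listed at 0 in all 8 libraries, and 22 of the 32 were at 0 in at least 1 library. Efnb2, at a mean of 0.536 FPKM, was the closest above the limit.

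The 10 members with a mean of 5 FPKM or more were the receptors Epha2, Epha4, Ephb4, Plxnb2, Nrp2 and Robo1 and the ligands Efna3, Efna4, Sema4b and Ntn1. Epha2 had the highest level in serum, at a mean of 45.5 FPKM in WT and 34.9 in P53KO. Epha4 had the highest level in 2i, at 57.1 FPKM in WT and 33.1 in P53KO. In WT 2i the next ranks were Epha2 with 28.7 and 24.5 FPKM and Plxnb2 with 26.7 and 24.8, which overlap. In P53KO 2i the second rank was held by Ephb4, with 23.2 and 25.6 FPKM, above both libraries of Plxnb2 (14.1 and 16.1).

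**Figure D1:**
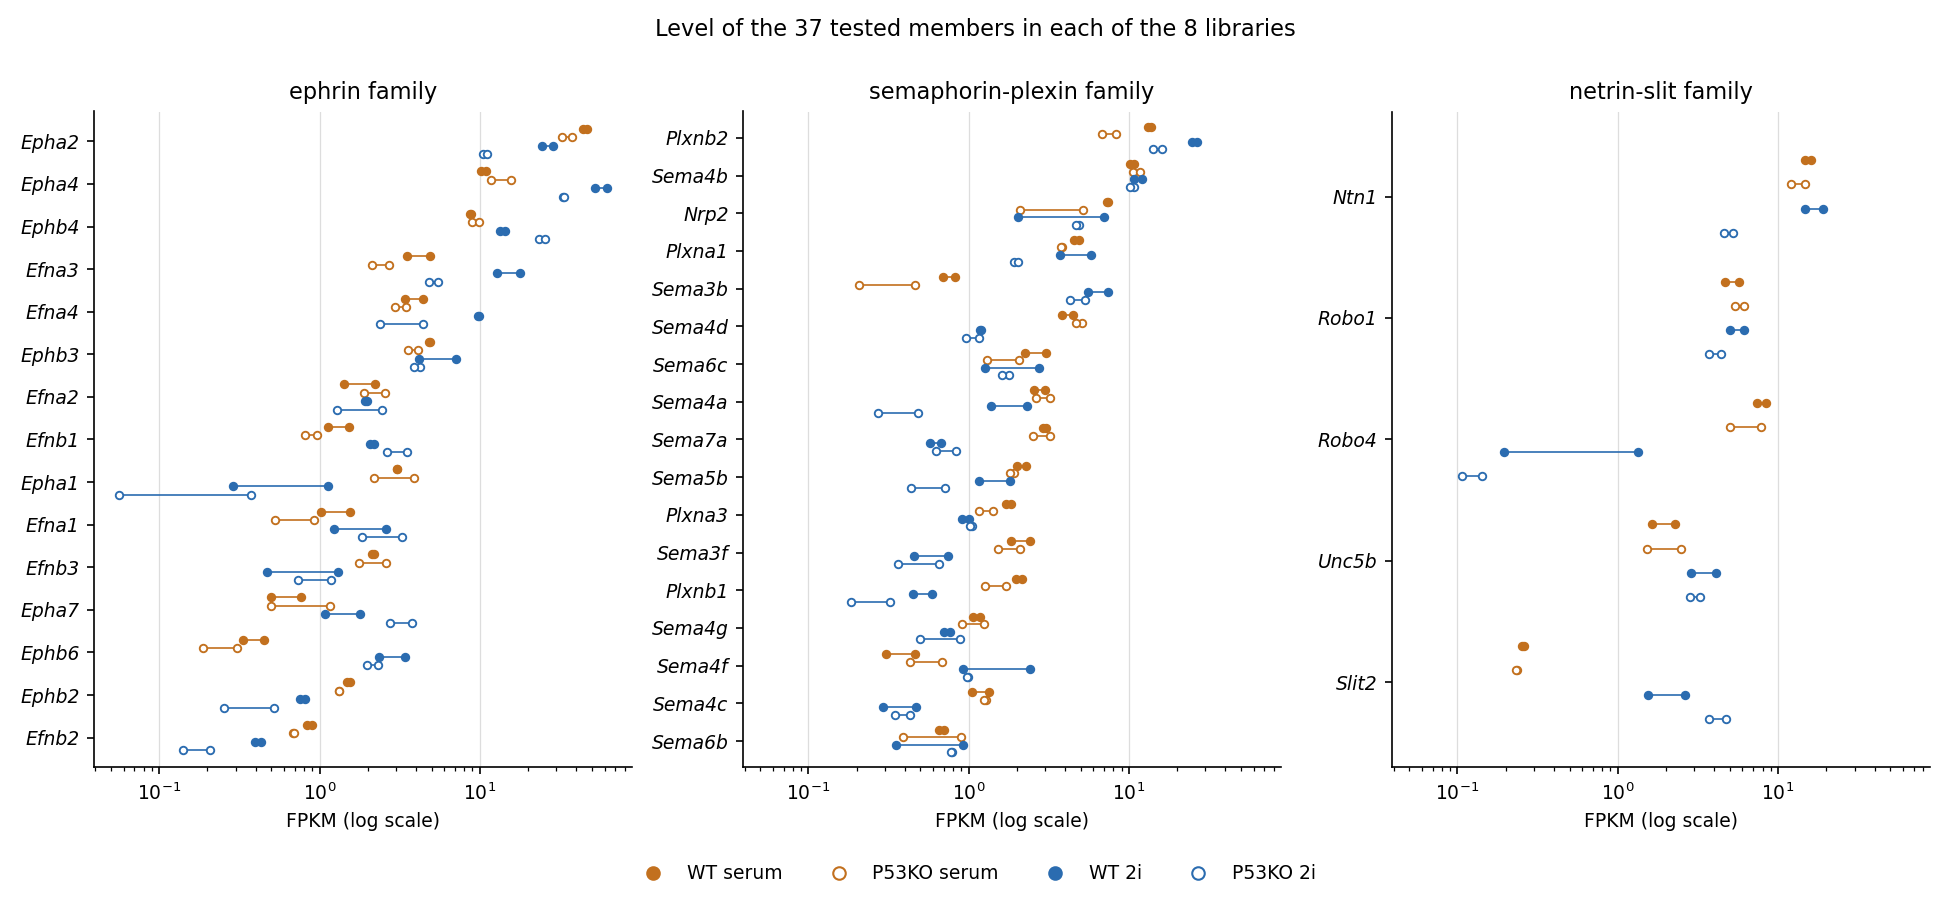
FPKM (log scale) of the 37 tested members in each library, by family, with genes ordered by their mean. Each point is 1 library and a line joins the 2 libraries of a group; filled points are WT, open points P53KO, orange serum and blue 2i. Epha2 leads in serum, Epha4 in 2i, and Slit2 lies below 0.3 FPKM in serum and above 1.5 in 2i.

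In 2i, members of all 3 families were lower in P53KO. Between P53KO and WT 2i, 9 members fell and 1 rose with an adjusted p below 0.1 and more than a 1.5-fold difference, the call used throughout. The called members were 27.0% of the 37 tested, beside 10.3% of all 12572 genes tested, of which 5.97% were called lower and 4.36% higher. The median log2 fold change was -0.40 over the members and 0.02 over all genes, and 26 of the 37 lay below 0. In the ephrin family 4 members fell and 1 rose of 15 (median -0.42), in the semaphorin-plexin family 4 fell of 17 (median -0.15), and in the netrin-slit family 1 fell of 5 (median -0.44). These are counts and medians without a test of the family.

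**Figure D2:**
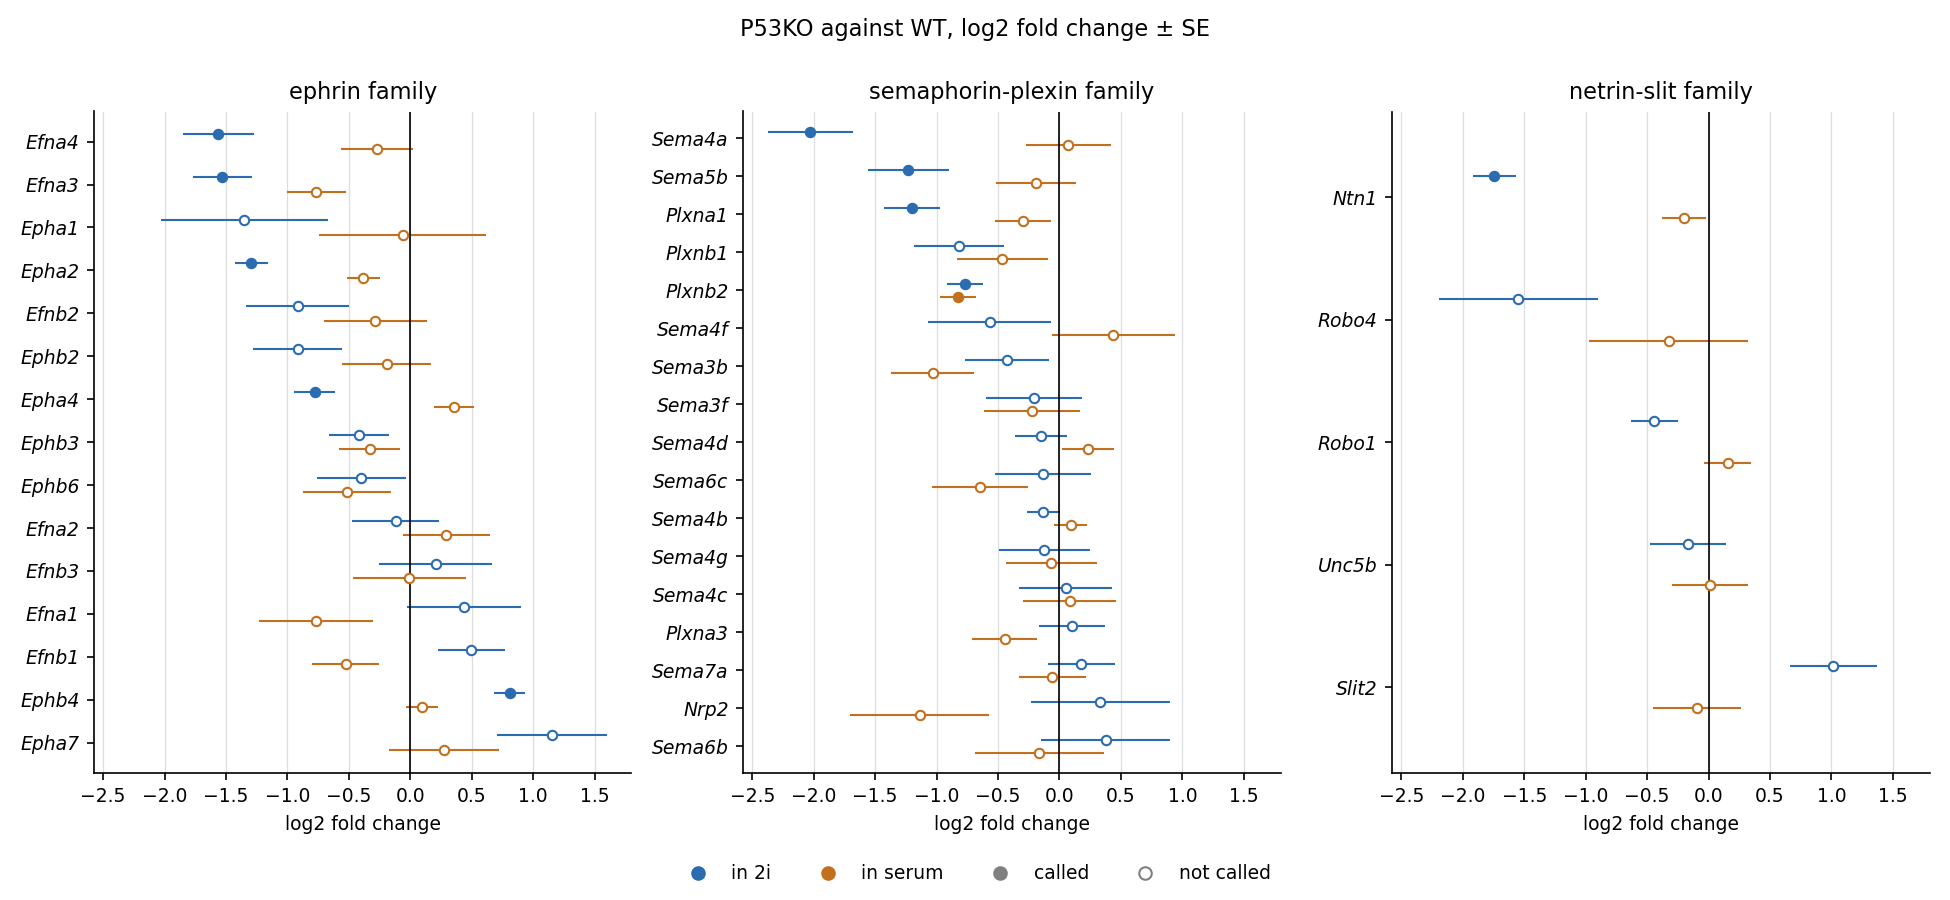
Log2 fold change with its SE of P53KO against WT for the 37 tested members, by family, in 2i (blue) and in serum (orange). Filled points are called; in 2i 10 members are called and only Ephb4 of them lies right of 0, while in serum Plxnb2 alone is called.

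Among the ephrin ligands, Efna3 and Efna4 fell. These are GPI-anchored ephrins that bind EphA receptors. Efna3 stood at 17.7 and 12.8 FPKM in WT 2i and at 4.84 and 5.49 in P53KO 2i, a log2 fold change of -1.53 (SE 0.24, adjusted p = 0.0132). Efna4 stood at 9.84 and 9.77 FPKM in WT 2i and at 2.37 and 4.45 in P53KO 2i, a log2 fold change of -1.56 (SE 0.29, adjusted p = 0.0230). Neither pair of groups overlaps. The serum groups ran from 2.12 to 4.90 FPKM for Efna3 and from 2.94 to 4.43 for Efna4. Efna1, Efna2 and the transmembrane ephrins Efnb1, Efnb2 and Efnb3 were not called, with log2 fold changes from -0.92 (Efnb2) to 0.49 (Efnb1). Summed over the 5 ephrin-A ligands the level was 32.2 and 25.8 FPKM in WT 2i against 10.5 and 15.6 in P53KO 2i.

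Efna1, Efna3 and Efna4 are consecutive protein-coding genes on chromosome 3, followed by Adam15, a membrane metalloproteinase. Efna1 held 2.58 and 1.22 FPKM in WT 2i against 1.84 and 3.26 in P53KO 2i, overlapping groups with a log2 fold change of 0.44 (95% interval -0.64 to 1.51, adjusted p = 0.609). Adam15 held 17.5 and 11.9 FPKM in WT 2i against 9.98 and 10.9 in P53KO 2i, a log2 fold change of -0.47 (adjusted p = 0.198). Within this stretch the calls were limited to the 2 inner genes.

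**Figure D3:**
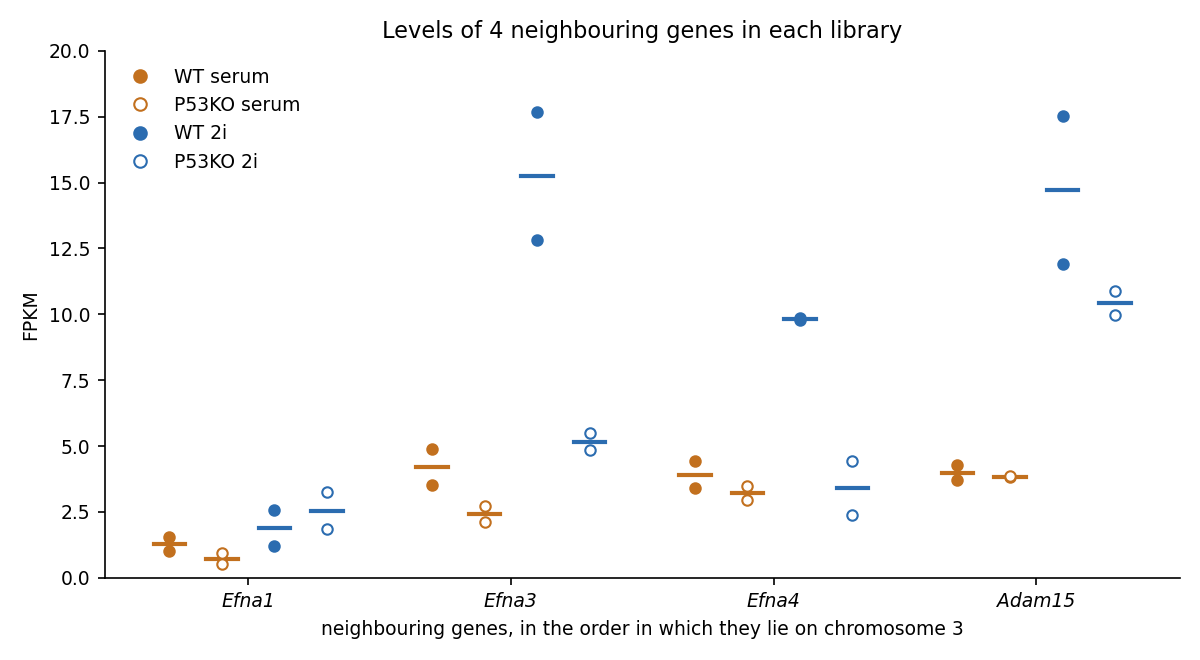
FPKM of Efna1, Efna3, Efna4 and Adam15 in each library, in their order on chromosome 3; points are libraries and bars are group means. WT 2i stands above the other groups for Efna3 and Efna4, while the WT and P53KO 2i libraries overlap for Efna1.

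Promoter sequences, from 250 bases before to 50 after an annotated start, were taken from RefSeq (GRCm38.p6), which held 75 such windows for 59 of the 69 members. They were searched on both strands for the 10-base unit of the P53 response element, for GGGCGG (the GC box) and for TATAAA (the TATA box). The P53 unit was in 6.67% of the members' windows and in 8.36% of all 32851 windows. Pairs of the unit with at most 13 bases between them were in 0 of the members' windows and in 0.0731% of all. GGGCGG was in 70.7% of the members' windows and 35.7% of all, TATAAA in 2.67% and 13.6%, and the median number of CpG was 19 and 7. All 32851 windows belong to 27025 genes, against 24881 symbols measured, so that this background was not limited to expressed genes. Of the 10 members called in 2i, 8 had windows, and 1 of these genes, Efna4, held the P53 unit, starting at position -89 from the annotated start. A match is a description of these letters and not a binding site.

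The windows of Efna4 and its neighbour Efna3, of Epha2 as the receptor with the largest called fall, of Ephb4 as the member that rose, and of Robo1 as a member with the P53 unit that was not called are shown 5′ to 3′ on the gene's strand, with the P53 unit and GC boxes of either strand in capitals. Efna4 (chr3:89337979-89338278, minus strand) and Robo1 (chr16:72662899-72663198, plus strand) hold the P53 unit in capitals and no GC box. Efna3 (chr3:89322890-89323189, minus strand), Epha2 (chr4:141300971-141301270, plus strand) and Ephb4 (chr5:137349859-137350158, plus strand) hold GC boxes alone, 3, 1 and 4 of them.
Efna4: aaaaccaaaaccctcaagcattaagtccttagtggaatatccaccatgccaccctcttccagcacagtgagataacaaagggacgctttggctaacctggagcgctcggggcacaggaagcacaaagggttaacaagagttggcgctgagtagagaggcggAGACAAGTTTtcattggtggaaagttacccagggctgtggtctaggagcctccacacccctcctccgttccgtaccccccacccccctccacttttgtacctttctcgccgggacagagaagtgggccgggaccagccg
Efna3: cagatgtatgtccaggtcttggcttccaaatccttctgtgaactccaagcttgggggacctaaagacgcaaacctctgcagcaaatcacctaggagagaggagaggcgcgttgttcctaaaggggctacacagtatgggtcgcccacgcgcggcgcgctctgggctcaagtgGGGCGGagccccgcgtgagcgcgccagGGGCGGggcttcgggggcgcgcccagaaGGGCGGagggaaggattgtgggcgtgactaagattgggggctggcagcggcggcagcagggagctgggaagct
Epha2: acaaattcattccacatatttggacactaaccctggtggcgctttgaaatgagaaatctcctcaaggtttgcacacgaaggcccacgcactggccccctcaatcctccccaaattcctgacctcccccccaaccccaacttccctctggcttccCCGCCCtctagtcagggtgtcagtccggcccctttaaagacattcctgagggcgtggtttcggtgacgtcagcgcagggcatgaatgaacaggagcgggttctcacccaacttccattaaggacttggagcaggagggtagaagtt
Ephb4: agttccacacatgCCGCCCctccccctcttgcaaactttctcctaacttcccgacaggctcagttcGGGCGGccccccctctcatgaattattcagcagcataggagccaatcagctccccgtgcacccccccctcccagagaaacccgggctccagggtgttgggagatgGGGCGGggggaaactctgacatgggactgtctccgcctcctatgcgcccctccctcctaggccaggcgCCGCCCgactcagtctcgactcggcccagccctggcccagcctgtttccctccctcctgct
Robo1: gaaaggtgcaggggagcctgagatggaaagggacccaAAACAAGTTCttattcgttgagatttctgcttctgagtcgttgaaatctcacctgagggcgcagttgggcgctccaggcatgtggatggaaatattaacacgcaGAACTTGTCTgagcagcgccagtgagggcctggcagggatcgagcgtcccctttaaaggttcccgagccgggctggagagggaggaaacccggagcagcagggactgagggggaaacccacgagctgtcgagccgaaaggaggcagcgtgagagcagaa

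Of the Eph receptors, Epha2 and Epha4 fell in P53KO 2i and Ephb4 rose. Epha2, a receptor widely expressed in epithelia, stood at 28.7 and 24.5 FPKM in WT 2i and at 10.5 and 11.0 in P53KO 2i, a log2 fold change of -1.29 (SE 0.13, adjusted p = 0.00221). Epha4, a receptor that binds ephrins of both classes, went from 52.1 and 62.2 FPKM to 33.0 and 33.3, a log2 fold change of -0.78 (SE 0.17, adjusted p = 0.0358). Ephb4, the receptor for Efnb2 known from the vasculature, went from 14.5 and 13.3 FPKM to 23.2 and 25.6, a log2 fold change of 0.81 (SE 0.13, adjusted p = 0.0134). For each of these receptors the WT and P53KO libraries are apart. The summed level of the 9 EphA receptors was 83.9 and 89.4 FPKM in WT 2i against 46.8 and 48.5 in P53KO 2i, and that of the 5 EphB receptors was 22.9 and 23.7 FPKM and then 30.1 and 32.1. Epha7 at 1.08 and 1.80 FPKM in WT 2i against 2.75 and 3.78 in P53KO 2i was not called (log2 fold change 1.15, adjusted p = 0.159). Epha1 (-1.35, adjusted p = 0.264), Ephb2 (-0.92, adjusted p = 0.166), Ephb3 (-0.42, adjusted p = 0.340) and Ephb6 (-0.40, adjusted p = 0.538) were not called either.

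In the semaphorin-plexin family, Sema4a, Sema5b, Plxna1 and Plxnb2 fell in P53KO 2i. Sema4a, a membrane-bound semaphorin also known from immune cells, stood at 2.33 and 1.38 FPKM in WT 2i and at 0.270 and 0.481 in P53KO 2i, a log2 fold change of -2.03 (SE 0.35, adjusted p = 0.0181). These P53KO values rest on about 8 fragments in each library, against about 58 and 23 in WT 2i, and a pseudocount of 1 in place of 0.1 brought Sema4a to -1.04. Sema5b, a transmembrane semaphorin, went from 1.15 and 1.81 FPKM to 0.711 and 0.435 (log2 fold change -1.23, SE 0.33, adjusted p = 0.0666). Plxna1, a plexin that pairs with neuropilins, went from 5.83 and 3.73 FPKM to 1.91 and 2.04 (log2 fold change -1.20, SE 0.23, adjusted p = 0.0253). Plxnb2, a receptor for class 4 semaphorins, went from 26.7 and 24.8 FPKM to 14.1 and 16.1 (log2 fold change -0.77, SE 0.15, adjusted p = 0.0244). The summed plexin level was 35.1 and 30.8 FPKM in WT 2i against 18.1 and 20.2 in P53KO 2i.

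No other member of the family was called. Sema4b, the most abundant semaphorin, held 12.1 and 10.8 FPKM in WT 2i against 10.7 and 10.1 in P53KO 2i, a log2 fold change of -0.13 (95% interval -0.44 to 0.18). Nrp2 varied within WT 2i, at 2.03 and 7.04 FPKM, and held 4.90 and 4.70 in P53KO 2i (log2 fold change 0.33, 95% interval -0.98 to 1.64). The other 11 tested members of this family had log2 fold changes between -0.82 (Plxnb1) and 0.38 (Sema6b), none called.

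In the netrin-slit family, Ntn1 fell. Ntn1 encodes netrin-1, a secreted cue and a ligand of receptors that can signal cell death when unbound. It stood at 14.6 and 19.1 FPKM in WT 2i and at 4.62 and 5.24 in P53KO 2i, a log2 fold change of -1.74 (95% interval -2.15 to -1.33, SE 0.18, adjusted p = 0.00220). Both P53KO 2i libraries lie below the 6 other libraries, which ran from 12.1 to 19.1 FPKM. Its receptor Unc5b held 4.11 and 2.85 FPKM in WT 2i against 3.25 and 2.83 in P53KO 2i (log2 fold change -0.17, 95% interval -0.88 to 0.54). The slit receptor Robo1 held 6.13 and 5.00 FPKM and then 3.69 and 4.44 (log2 fold change -0.44, 95% interval -0.89 to 0.00450), and Robo4 was at 1.34 and 0.196 FPKM and then 0.106 and 0.141, not called (adjusted p = 0.184). Slit2 was higher in both P53KO 2i libraries, at 3.71 and 4.72 FPKM against 1.55 and 2.62, but was not called (log2 fold change 1.02, 95% interval 0.19 to 1.84, adjusted p = 0.127).

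The calls in 2i depended on how the spread was estimated. A fit of only the WT and P53KO 2i libraries left Ntn1 (adjusted p = 0.0873) and Epha2 (adjusted p = 0.0775) called. Leaving out 1 library ended the call of Epha4 without either P53KO library (adjusted p = 0.127 and 0.151) or without the second WT library (0.111), of Plxna1 without either P53KO library (0.106 and 0.111), of Sema5b without the second P53KO (0.253) or second WT library (0.182), and of Plxnb2 without the first P53KO library (0.111). Quantile normalization ended the call of Sema5b as well (adjusted p = 0.101). Efna3, Efna4 and Plxna1 overlap antisense transcripts and Ephb4 overlaps Zan on the other strand, and whether the counting used strand is not given in the sources used here. Zan itself was at 0.314 FPKM or less in every library. Of the members called between cultures below, Epha1 overlaps Zyx on the other strand, and Plxnb1 and Sema4c overlap other transcripts there. Zyx ran from 0.505 to 1.95 FPKM over the libraries.

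Among the markers of other cell types, Tek and Tubb3 were called lower in P53KO 2i and none higher, and of the 8 ESC markers Klf4 was called lower (log2 fold change -0.96, adjusted p = 0.00782). Of 6 endothelial markers 2 were tested, Tek (-2.05, adjusted p = 0.0337) and Kdr (-0.89, adjusted p = 0.154), and the summed level of the list was 3.31 to 3.79 FPKM in WT 2i, 1.21 to 1.67 in P53KO 2i and 1.13 to 1.54 in serum, with Emcn at 0 throughout. Of 6 primitive endoderm markers 1 was tested, Gata4 (-0.81, adjusted p = 0.288), and the sum of the list was 2.49 to 4.36 FPKM in WT 2i against 1.47 to 2.32 in P53KO 2i. The neural sum was 73.2 to 82.3 FPKM in WT 2i against 56.5 to 63.3 in P53KO 2i, most of it from Stmn2 (-0.27, adjusted p = 0.272) and Tubb3 (-0.61, adjusted p = 0.0540). Of the other neural markers, Sox1 was at -0.68, Elavl3 at 0.49 and Map2 at 1.06, none called, and Pax6 held 0.210 and 0.157 FPKM in WT 2i against 0.584 and 0.731 in P53KO 2i. Their part in the changes of the members was not tested, and in these bulk libraries fewer cells of a type and less RNA per cell cannot be told apart.

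In serum 1 of the 37 members, Plxnb2, was called between P53KO and WT, 2.70% beside 1.02% of all genes tested. Plxnb2 stood at 13.2 and 13.8 FPKM in WT serum and at 8.35 and 6.82 in P53KO serum, a log2 fold change of -0.83 (SE 0.15, adjusted p = 0.0694), close in size to that in 2i. Its call in serum was lost without the second P53KO library (adjusted p = 0.281) and without either WT library (0.411 and 0.386). The other 9 members called in 2i were not called in serum. Ntn1 held 14.7 and 16.1 FPKM in WT serum against 14.8 and 12.1 in P53KO serum (log2 fold change -0.20, 95% interval -0.61 to 0.21). Ephb4 held 8.86 and 8.65 FPKM and then 8.91 and 9.82 (0.09, 95% interval -0.20 to 0.39). Efna3, at 3.52 and 4.90 FPKM and then 2.12 and 2.72, had a log2 fold change of -0.76 (adjusted p = 0.287), and Epha2, at 46.6 and 44.2 FPKM and then 37.4 and 32.5, one of -0.38 (adjusted p = 0.332). Their libraries did not overlap, but the differences were not called. The median over the members was -0.19 and over all genes 0.02.

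Whether the P53 difference itself depended on culture was tested as an interaction. None of the 37 members was called by limma, beside 0.207% of all genes, while 8 had an unadjusted p under 0.05, as had 1651 of the 12572 genes. Ntn1 was nearest, with a difference of -1.54 between the log2 fold changes in 2i and in serum (95% interval -2.12 to -0.96, adjusted p = 0.101). Its adjusted p was 0.0731 without the first WT 2i library, and ran from 0.0731 to 0.384 over all alternatives. The other 7 were Sema4a (-2.10, adjusted p = 0.172, or -1.09 with a pseudocount of 1), Efna4 (-1.29, 0.260), Epha4 (-1.13, 0.161), Epha2 (-0.91, 0.161), Plxna1 (-0.90, 0.310), Ephb4 (0.71, 0.192) and Efnb1 (1.02, 0.331), the adjusted p standing second. For Plxnb2 the difference was 0.06 (95% interval -0.42 to 0.53). No member's P53 difference was thus shown to depend on culture.

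Culture changed more members than genotype did. In WT, 24 of the 37 members were called between 2i and serum, 12 higher and 12 lower in 2i. That is 64.9%, near the 55.7% called among all genes (27.2% higher and 28.6% lower). In P53KO 25 were called, 10 higher and 15 lower, 67.6% beside 58.2% of all genes (28.0% higher and 30.1% lower). The 2 contrasts share no library, and 20 members were called in both in 1 direction, 9 higher and 11 lower in 2i, which is 83.3% of the WT list and 80.0% of the P53KO list. Over all genes these shares were alike, 82.9% of the WT list and 79.4% of the P53KO list, with 46.2% of all genes tested called in both in 1 direction. The WT contrast shares its 2i libraries with the P53 contrast above, so that the values of each are given side by side only.

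**Figure D4:**
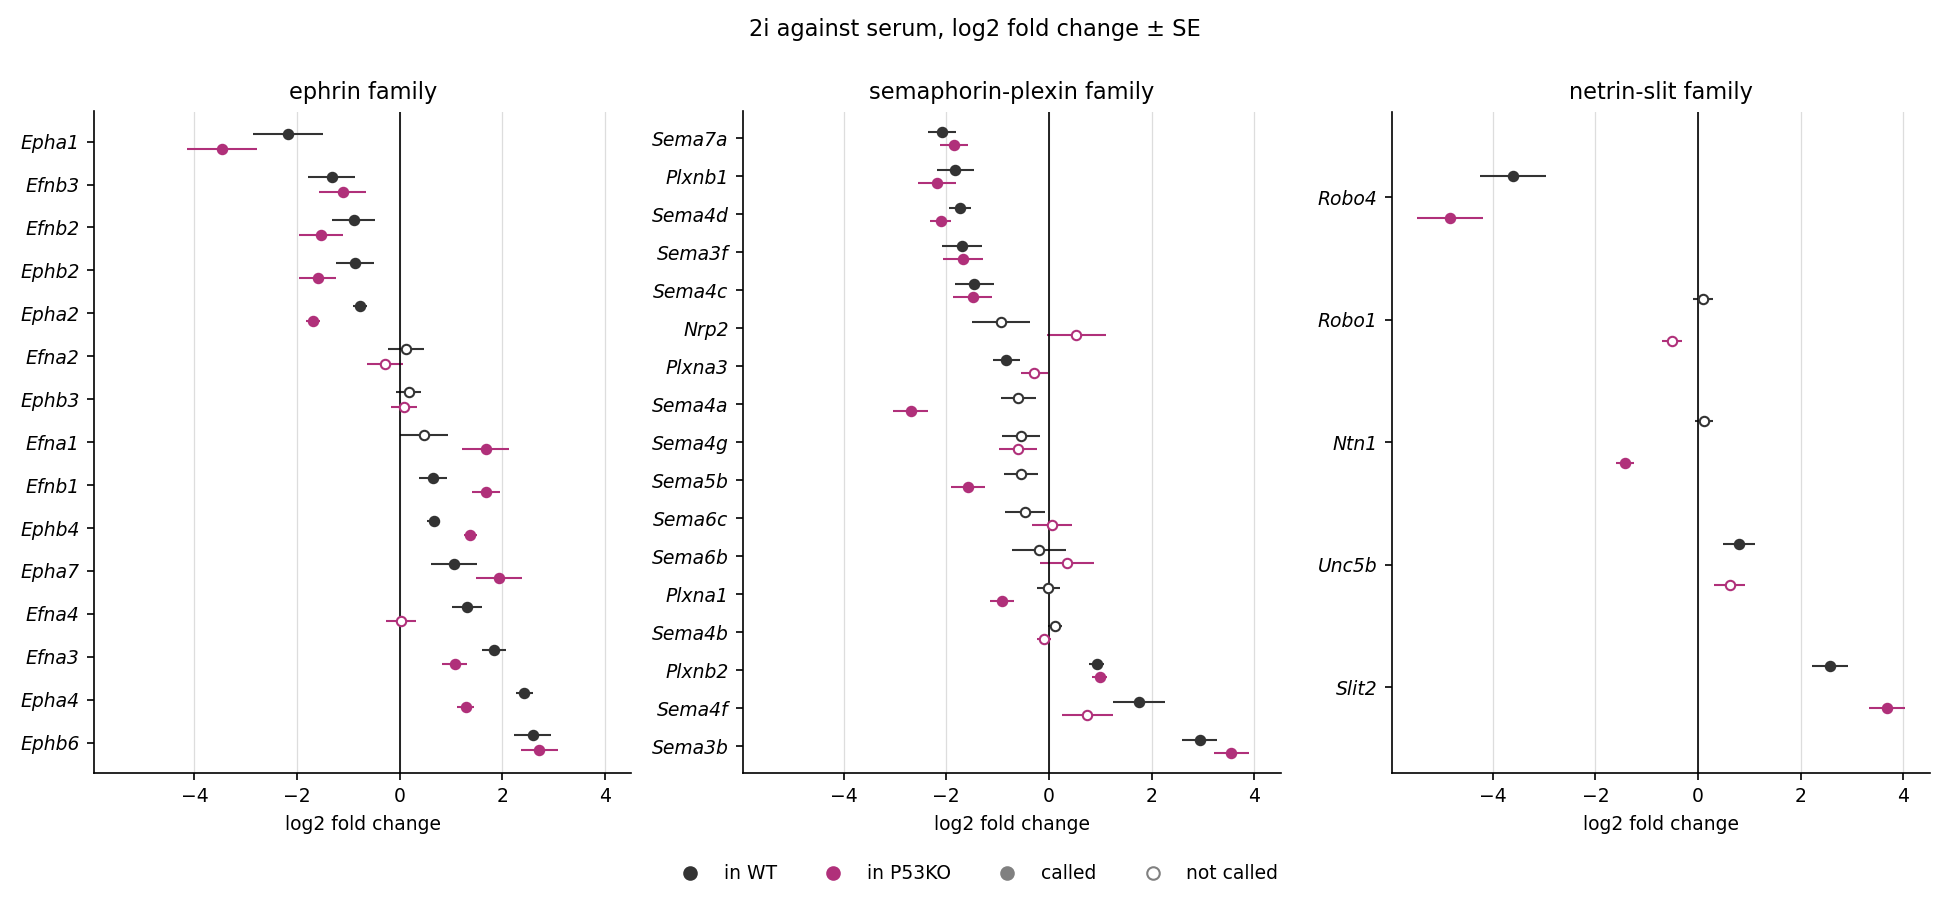
Log2 fold change with its SE of 2i against serum for the 37 tested members, by family, in WT (black) and P53KO (magenta), with called members filled. Sema3b, Slit2 and Ephb6 lie furthest right and Robo4 and Epha1 furthest left in both genotypes.

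The ephrin family had calls in both directions, 7 higher and 5 lower of 15 in each genotype, 80.0% beside 55.7% of all genes in WT and 58.2% in P53KO. The family was not tested as a group. Epha4 rose from 10.1 and 11.0 FPKM in WT serum to 52.1 and 62.2 in WT 2i (log2 fold change 2.42, SE 0.17, adjusted p = 3.7e-05) and from 11.7 and 15.7 to 33.0 and 33.3 in P53KO (1.29, adjusted p = 0.000372). Epha2 fell from 46.6 and 44.2 to 28.7 and 24.5 in WT (-0.77, adjusted p = 0.00166) and from 37.4 and 32.5 to 10.5 and 11.0 in P53KO (-1.69, adjusted p = 4.8e-05). Ephb4 rose by 0.66 in WT and by 1.37 in P53KO on the log2 scale. The ratio of Epha4 to Epha2 was 0.217 and 0.248 in WT serum, 0.313 and 0.482 in P53KO serum, 1.81 and 2.54 in WT 2i, and 3.15 and 3.01 in P53KO 2i. The receptor with the higher level was thus Epha2 in all 4 serum libraries and Epha4 in all 4 2i libraries.

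Set against the summed level of the 14 Eph receptors, Epha2 held 61.3% and 59.4% in WT serum, 54.3% and 49.1% in P53KO serum, 26.9% and 21.7% in WT 2i, and 13.6% and 13.7% in P53KO 2i. Epha4 held 13.3% to 23.7% in serum, 48.7% and 55.0% in WT 2i and 42.9% and 41.3% in P53KO 2i. Ephb4 held 11.6% to 14.8% in the 6 libraries other than P53KO 2i, and 30.2% and 31.8% in P53KO 2i. The sum itself was 66.1 to 76.1 FPKM in serum, 107 and 113 in WT 2i, and 76.9 and 80.6 in P53KO 2i.

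**Figure D5:**
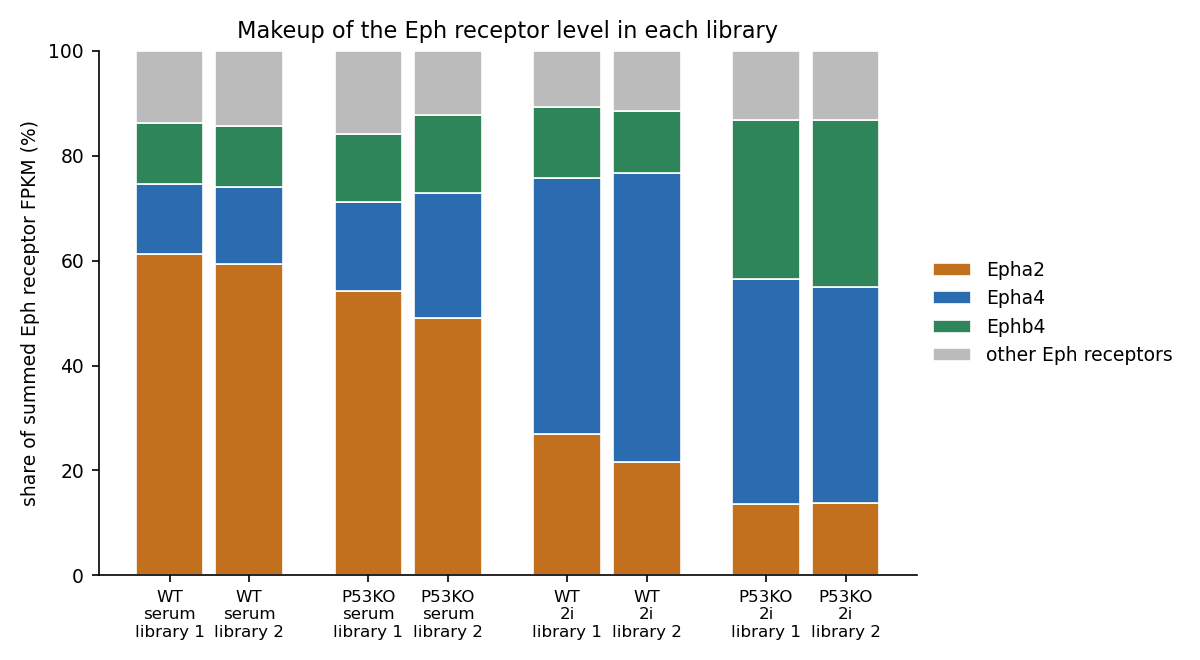
Share (%) of the summed FPKM of the 14 Eph receptors held by Epha2, Epha4, Ephb4 and the remaining receptors in each of the 8 libraries. Epha2 holds 49.1% or more in serum, Epha4 41.3% or more in 2i, and Ephb4 30.2% and 31.8% in P53KO 2i.

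Further ephrin members followed culture in both genotypes. Ephb6, an Eph receptor without kinase activity, rose from 0.453 and 0.332 FPKM in WT serum to 3.44 and 2.36 in WT 2i (log2 fold change 2.59) and by 2.71 in P53KO. Efna3 rose by 1.83 in WT and by 1.07 in P53KO, Efnb1 by 0.65 and 1.67, and Epha7 by 1.06 and 1.94. Epha1 fell from 3.05 and 3.03 FPKM in WT serum to 1.14 and 0.290 in WT 2i (-2.18, and -3.47 in P53KO). Its P53KO 2i values rest on about 12 and 1 fragments, and the P53KO difference became -4.27 or -2.66 with the first or the second P53KO 2i library left out. Efnb2 (-0.90 and -1.53), Efnb3 (-1.33 and -1.11) and Ephb2 (-0.87 and -1.60) were lower in 2i as well. Efna4 was called in WT alone (1.31, and 0.02 in P53KO), and Efna1 in P53KO alone (1.67, and 0.47 in WT).

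The size of the culture differences depended on the pseudocount for members of low level. With a pseudocount of 1 in place of 0.1, 10 of the 24 log2 fold changes called in WT and 16 of the 25 in P53KO moved toward 0 by more than 1.5-fold, and 5 calls in WT and 1 in P53KO were lost because the difference then fell short of 1.5-fold. The calls lost in WT were those of Efnb1 (0.43), Efnb2 (-0.40), Epha7 (0.57), Ephb2 (-0.50) and Plxna3 (-0.51), and the call lost in P53KO was that of Efnb2 (-0.52). Epha1 became -1.28 in WT and -1.71 in P53KO, and Ephb6 1.47 and 1.33. In P53KO Ephb2 became -0.75, Efna1 1.02 and Epha7 1.24. With a pseudocount of 0.01, Epha1 became -4.19 and Robo4 -5.56 in P53KO.

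Several culture calls of the less abundant members were also lost when 1 library was left out. In WT this held for Epha1 without the second 2i library (log2 fold change -1.35, adjusted p = 0.139) or either serum library (0.107 and 0.109), and for Efnb3 without the same libraries (-0.68, adjusted p = 0.180, then 0.128 and 0.138). Without the first 2i library Epha1 stood at -3.01 and Efnb3 at -1.98, both called. Efnb2 lost its call without either 2i library (0.165 and 0.127) or the second serum library (0.108), Ephb2 without any 1 of the 4 libraries (0.121 to 0.154), Efnb1 without either 2i library (0.126 and 0.168) or the first serum library (0.278), and Epha7 without the second 2i library (0.292) or either serum library (0.288 and 0.109). In P53KO, Efnb3 lost its call without the second 2i or second serum library (0.269 each) and Efna1 without the second 2i library (0.1005).

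Of the 17 tested members of the semaphorin-plexin family, 3 were called higher and 6 lower in 2i in WT, and 2 higher and 8 lower in P53KO. The called members were 52.9% and 58.8%, near the 55.7% and 58.2% of all genes, and the split between higher and lower was not tested. Sema7a, a GPI-anchored semaphorin, fell from 3.03 and 2.92 FPKM in WT serum to 0.676 and 0.575 in WT 2i (log2 fold change -2.09, and -1.85 in P53KO, or -1.29 and -1.16 with a pseudocount of 1). Sema4d, a ligand of Plxnb1, fell from 3.85 and 4.47 to 1.17 and 1.19 (-1.73, and -2.11 in P53KO), and Plxnb1 from 2.17 and 1.98 to 0.587 and 0.450 (-1.82, and -2.18 in P53KO). With a pseudocount of 1 Plxnb1 became -1.02 and -0.98, and Sema4d -1.52 in P53KO. Sema3f (-1.69 and -1.68) and Sema4c (-1.45 and -1.49) were lower in both genotypes too, at -0.97 and -0.90 for Sema3f and -0.67 and -0.71 for Sema4c with a pseudocount of 1. Sema3b, a secreted semaphorin, rose from 0.689 and 0.821 FPKM to 7.43 and 5.58 (2.94, and 3.55 in P53KO, or 2.09 and 2.12 with a pseudocount of 1), and Plxnb2 rose by 0.93 and 0.99. Plxna3 (-0.83) and Sema4f (1.75, or 1.10 and 2.41 with the first or the second WT 2i library left out, and 0.89 with a pseudocount of 1) were called in WT alone, and Sema4a (-2.69), Sema5b (-1.58) and Plxna1 (-0.91) in P53KO alone, where their WT log2 fold changes were -0.60, -0.54 and -0.01. With a pseudocount of 1 Sema4a became -1.51 and Sema5b -0.87 in P53KO.

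In the netrin-slit family, Slit2 was higher and Robo4 lower in 2i. The slit receptor Robo1 was not called (log2 fold change 0.09 in WT and -0.50 in P53KO). Slit2 rose from 0.259 and 0.254 FPKM in WT serum to 1.55 and 2.62 in WT 2i (log2 fold change 2.57, adjusted p = 0.000588), and from 0.236 and 0.232 to 3.71 and 4.72 in P53KO (3.68, adjusted p = 0.000103). With a pseudocount of 1 these became 1.27 and 2.07. Robo4, a Robo protein known from endothelium, fell from 8.40 and 7.36 FPKM to 1.34 and 0.196 in WT (-3.61, adjusted p = 0.00207) and from 4.98 and 7.85 to 0.106 and 0.141 in P53KO (-4.83, adjusted p = 0.000448). The WT 2i values of Robo4 rest on about 52 and 5 fragments, and the WT value became -4.75 when the first of these libraries was left out and -2.47 when the second was. With a pseudocount of 1 Robo4 stood at -2.41 in WT and -2.69 in P53KO. Cdh5, Emcn, Tie1 and Sox18, 4 of the 6 endothelial markers, were below 0.5 FPKM in every library. The other 2, Tek (1.39, adjusted p = 0.0233) and Kdr (0.76, adjusted p = 0.0878), were called higher in WT 2i than in WT serum, and neither was called in P53KO (-0.13 and -0.04). Ntn1 differed by 0.12 in WT and fell by 1.42 in P53KO on the log2 scale (adjusted p = 0.585 and 0.000313). Unc5b was called in WT (0.79, adjusted p = 0.0558) and not in P53KO (0.61, adjusted p = 0.117), and its WT call was lost without the first WT 2i library (adjusted p = 0.253) or the first WT serum library (0.275).

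Of the tested members 8 were called in no comparison, namely Efna2, Ephb3, Nrp2, Sema4b, Sema4g, Sema6b, Sema6c and Robo1. Among the most abundant, Sema4b ran from 10.1 to 12.1 FPKM over the 8 libraries, Robo1 from 3.69 to 6.17, Ephb3 from 3.57 to 7.11 and Nrp2 from 2.03 to 7.40. Sema6c ran from 1.26 to 3.05 FPKM and Efna2 from 1.29 to 2.55.

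Of 62 other genes of axon guidance, further cues, cytoplasmic effectors and processing enzymes, 45 were tested. In 2i 3 of them fell in P53KO and none rose, 6.67% beside 10.3% of all genes tested, with a median log2 fold change of -0.01. Srgap2, a GTPase-activating protein downstream of Robo, went from 4.97 and 6.76 FPKM to 1.83 and 1.70 (log2 fold change -1.66, adjusted p = 0.00443). Ptprf, a receptor phosphatase, went from 11.6 and 10.8 FPKM to 6.26 and 5.20 (-0.96, adjusted p = 0.0114). Mmp2, a secreted protease, held 0.405 and 1.36 FPKM in WT 2i and was listed at 0 in both P53KO 2i libraries (adjusted p = 0.0191). In serum and in the interaction limma called 0 of the 45, with 2 and 4 at an unadjusted p under 0.05. Between 2i and serum 10 rose and 17 fell in WT, and 10 rose and 14 fell in P53KO, which is 60.0% and 53.3% of the list beside 55.7% and 58.2% of all genes. Among the larger rises in WT were Kalrn (1.78), Nck2 (1.58), Dpysl2 (1.42) and Gipc1 (1.34). Crmp1 (-2.62), Dpysl3 (-2.44), Grb7 (-2.25), Enah (-1.96) and Met (-1.96) fell most in WT, of which Crmp1 and Dpysl3 encode collapsin response mediators of semaphorin signals. In P53KO the largest falls after Mmp2, listed at 0 in both P53KO 2i libraries, were Crmp1 (-3.69), Grb7 (-2.51), Dpysl3 (-2.34) and Enah (-2.23), and among the larger rises were Ablim1 (1.77), Nck2 (1.46), Farp1 (1.27) and Srgap3 (1.18). The fibroblast sum was 7.73 to 10.5 FPKM in serum, where Thy1 alone of 7 markers had a mean above 0.5, and 0.761 to 1.34 in 2i. The neural list moved with culture as well, with 3 of 5 tested markers called lower in 2i in WT and 4 in P53KO, and so did Gata4, the tested primitive endoderm marker, which was higher in 2i (1.19 in WT and 1.81 in P53KO). Of the 8 ESC markers, Pou5f1 was called higher (0.80) and Sox2 lower (-0.60) in WT 2i, while in P53KO 2i Dppa5a was called higher (0.71) and Klf4 (-1.08), Zfp42 (-0.74), Sox2 (-0.63) and Nanog (-0.60) lower. Their part in the culture differences was not tested.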

How the data were processed

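Gene expression was measured by RNA-seq in FUCCI ESCs sorted in G1, WT or P53KO, in both cultures (8 libraries). Per the labels these were made from rRNA-depleted total RNA with random priming and a stranded kit. The authors deposited FPKM values per gene symbol. The submitters' processing notes name STAR, Cufflinks, DESeq2 and mm9, without versions or roles, and the annotation and strand setting are not given in the sources used here. Columns name genotype and culture alone, so libraries are numbered in column order and 0 columns of other samples were left over. P21 knockout libraries and the WT 2i libraries labelled with them were not analysed here.

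The members and all gene lists were chosen with earlier results of these data known. Differences were tested in limma (version 3.58.1, R 4.3.3) after the transformation log2(FPKM + 0.1), for genes with a mean of at least 0.5 FPKM, in 1 fit of the 4 groups with a trended eBayes, and Benjamini-Hochberg adjustment over the 12572 genes tested. A call needed an adjusted p below 0.1 and more than a 1.5-fold difference, the study's thresholds. Fold changes are on the log2(FPKM + 0.1) scale and understate those of low genes. Values of both libraries are printed, group means come from 2 libraries, and errors are SEs of the fit. With 2 libraries a group an exact permutation test cannot go below p = 0.33. The labels do not say that libraries are separate cultures, so p-values measure the spread between these libraries. The script was tested on simulated data with genes changed in P53KO 2i alone and no difference between cultures in WT. No result given here rests on that test.

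Every member called in any comparison was named, with the 3 most abundant uncalled members of each family, and from the list of other guidance genes those called for P53 or the 5 largest culture changes each way, of which 1 is not reported here. Depth was estimated from the smallest steps of the FPKM of single-transcript genes, up to a factor common to all libraries. Neighbours, overlaps and promoters come from GENCODE M21 and RefSeq (GRCm38.p6), another build than mm9, so no gene coordinates beyond the promoter windows are given. Alternatives were other pseudocounts, filters, scalings and fits, and leaving out each library.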

Additional observations from a re-analysis of the deposited data

How the results depend on the processing

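No paired analysis was possible because the columns carry no replicate numbers. For P53KO against WT in 2i, 10 members were called, 2 in a fit of only the groups compared, and 7 to 11 with 1 library left out; no other alternative moved this count by more than 1.5 times. In serum, Plxnb2 was the 1 member called, and 0 were called with no filter on low values, in a fit of only the groups compared, without the eBayes trend and at an adjusted p under 0.05, and 0 to 1 with 1 library left out. For the interaction 0 were called, but 1 (Ntn1) with a pseudocount of 1, with a mean of at least 1 FPKM, after quantile normalization and with small RNA genes left out, and 0 to 1 with 1 library left out. Between 2i and serum the counts stayed within 1.5 times of 24 in WT (18 to 22 with 1 library left out) and 25 in P53KO (25 to 26). In WT, Efnb1 and Epha7 also lost their calls with no filter and after quantile normalization, Efnb2 with a pseudocount of 0.01 and under median-ratio scaling, and Ephb2 with a mean of at least 1 FPKM (adjusted p = 0.101). In P53KO, Efnb3 lost its call with no filter (0.101). At an adjusted p under 0.05, Efnb1, Efnb2, Epha7, Ephb2 and Unc5b in WT, Efnb3 in P53KO and Sema5b between P53KO and WT 2i were not called. With no filter, Epha10 (-1.67) and Slit1 (-1.41) were called lower in P53KO 2i as well. Between 2i and serum, 8 of the 32 untested members were then called in WT and 10 in P53KO, with Sema3e furthest from 0 in each (-2.33 and -2.05). No member that was called changed direction under any alternative. Leaving out a library leaves an arm with 1, whose spread is taken from the other groups. Members of few fragments, such as Sema4a in P53KO 2i and Robo4 in 2i, are limited by depth.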
